A study of Mus musculus with 8 samples.

Results

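The comparison described here followed mouse embryonic stem cells (ESCs) that carry a Zfp462 knockout as they left self-renewal and formed embryoid bodies (EBs) for 3 days. It rests on 4 of the 8 libraries of the study, 2 of knockout day 3 EBs and 2 of undifferentiated knockout ESCs, chosen by genotype and culture alone and compared across all genes. All cells were of the R1 line, a male mouse ESC line used widely for gene targeting, and the control group was the same line without the knockout, also taken as ESCs and as day 3 EBs with 2 libraries each. The ESCs of both genotypes grew on gelatin in serum medium with leukaemia inhibitory factor (LIF), and the EBs formed from dissociated single cells in Petri dishes. Poly(A) RNA was sequenced from every sample. The labels name stable knockout lines but not the allele, the edited exon or whether the 2 libraries of a group are separate cultures, clones or repeats of 1 line. P-values here reflect nothing beyond the spread of these samples, and that spread may be technical. The study set out to learn what the loss of Zfp462 does to self-renewal and to differentiation.

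Zfp462 encodes a large zinc finger protein found on chromatin of pluripotent cells. Mouse ESCs in serum and LIF resemble the naive epiblast of the blastocyst, which is held by a network of transcription factors such as Nanog, Esrrb, Klf4 and Tfcp2l1. Once LIF is withdrawn and the cells aggregate, the naive network is switched off, formative genes such as Fgf5, Otx2 and Dnmt3b come on while Pou5f1 stays expressed, and an outer layer of extraembryonic endoderm, a tissue of the yolk sac, secretes laminin and type IV collagen and takes up and transports lipids and proteins.

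Levels are CPM, that is, counts scaled to the size of each library, and are not corrected for gene length, so they are compared between samples of 1 gene and not between genes. The 4 knockout libraries held 13232127 to 13511234 counts. A pair of libraries stood apart. Knockout EB replicate 1 held RNA of adult liver: all 30 genes of a liver list had at least 10 counts there, with a summed level of 2754 CPM, against 5 to 14 genes and 65.0 to 119 CPM in the other 7 libraries. Lists of fibroblast and of immune genes summed to 43.5 to 60.3 and 40.8 to 60.3 CPM over all 8 libraries. Knockout ESC replicate 2 differed from replicate 1 along GC content (a correlation of 0.714 across genes, described here without a test, against -0.056 to 0.023 within the other 3 groups), and 263 of 11218 genes with at least 5 CPM lay more than 2-fold apart between the knockout ESC replicates, against 32 between the knockout EB replicates. In view of the liver RNA, a gene is called "held" below where it passed the test with either knockout EB library left out.

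**Figure D1:**
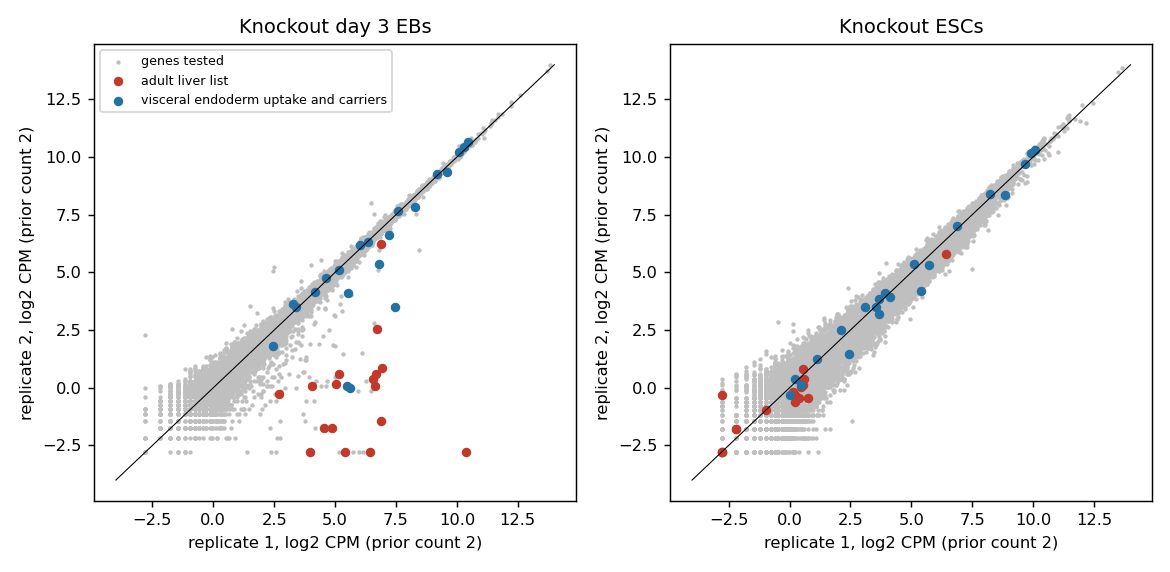
Agreement of the 2 libraries within each knockout group. Each point is a gene tested, and the axes give log2 CPM (prior count 2) in replicate 1 (x) and replicate 2 (y), with the liver list in red and visceral endoderm carriers in blue; most liver genes lie far below the diagonal in the EB pair, where replicate 1 holds a summed 2754 CPM of that list and replicate 2 holds 92.2 CPM.

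The level of Zfp462 itself (chr4:54945048-55083563, plus strand, mm10) did not differ detectably in the knockout between the 2 cultures. In knockout ESCs it stood at 104 and 107 CPM, and after 3 days as EBs at 102 and 103 CPM, a log2 difference of -0.04 ± 0.10 (estimate and SE from edgeR's quasi-likelihood fit, adjusted p = 0.813), while control cells went from 183 and 197 CPM to 154 and 130 CPM. The knockout libraries thus held this RNA at a lower level in both cultures. Which exon was edited is not stated in the labels, so counts over the gene check the labels only in part.

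Markers of the labelled cultures were present. Knockout ESCs held Pou5f1, the gene of OCT4, at 346 and 279 CPM, and knockout EBs at 386 and 371 CPM. The EBs had gained Fgf5 and lost most Tfcp2l1, as detailed below. The streak gene T (Brachyury) was nearly absent, with 6 counts over both ESC libraries and 3 over both EB libraries (ratio 0.519, 95% counting interval 0.084 to 2.43, which covers counting error only).

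Over the whole transcriptome, 17125 genes had enough counts to be tested. In knockout EBs 1410 were higher than in knockout ESCs (8.23% of those tested) and 1217 lower (7.11%) with edgeR's quasi-likelihood test at a threshold of 0.05 on the adjusted p. The split was 1137 higher and 1567 lower when library totals were used without composition factors, a scaling that moves the median of all genes by -0.054 on the log2 scale. At least a 2-fold change was seen for 540 and 450 genes. In both EB libraries 1393 of the 1410 and 1217 of the 1217 lay on the called side of both ESC libraries, but 58.1% of all tested genes are separate in 1 direction or the other in this way, and genes of the liver list can be among them. The stricter count of held genes was 412 higher (2.41%) and 285 lower (1.66%).

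Control cells made the same transition with 1472 genes higher (8.6%) and 1649 lower (9.63%). The control comparison shares no library with the knockout comparison. Of the genes that rose in knockout, 752 also rose in control, which is 53.3% of the knockout list and 51.1% of the control list. Of those that fell, 665 were shared, 54.6% and 40.3% of the lists. There were 16 genes that rose in knockout and fell in control, and 14 did the reverse. Across 11218 genes with at least 5 CPM the log2 responses of the 2 genotypes correlated at 0.702 (0.569 over all 17125), given as a description, since genes are not independent.

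The responses themselves were tested against each other. The knockout response was higher than the control response for 127 genes (0.742% of those tested) and lower for 110 (0.642%). The number of these calls changed with the library left out. It fell without any 1 of the control or knockout EB libraries and rose without either knockout ESC library. Such a fit has fewer libraries to estimate the spread from. The 16 named differences kept their sign in these fits, with -3.12 to -2.84 for the lowest (Stra6) and 3.09 to 3.88 for the highest (Mobp). By the same edgeR test 0 genes passed in either direction when control ESC replicate 1, control ESC replicate 2 or control EB replicate 2 was left out, where 877, 781 and 1330 genes had a higher and 689, 610 and 807 a lower response at an unadjusted p below 0.05. With control EB replicate 1 left out 7 and 15 passed, without knockout EB replicate 1 there were 8 and 12, and without knockout EB replicate 2 there were 66 and 38. Each difference between genotypes that is given below carries this limit.

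Of 43 gene lists, those with a large share of members moved in 1 direction in the knockout included the formative epiblast (up), the visceral endoderm carriers (up), glycolysis and hypoxia (up), epithelial identity (up), the basement membrane of extraembryonic endoderm (down) and the 2-cell-like state (down). Their medians are set beside a median of -0.0003 over all genes tested. In these bulk samples fewer cells of a type and less RNA per cell cannot be told apart.

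**Figure D2:**
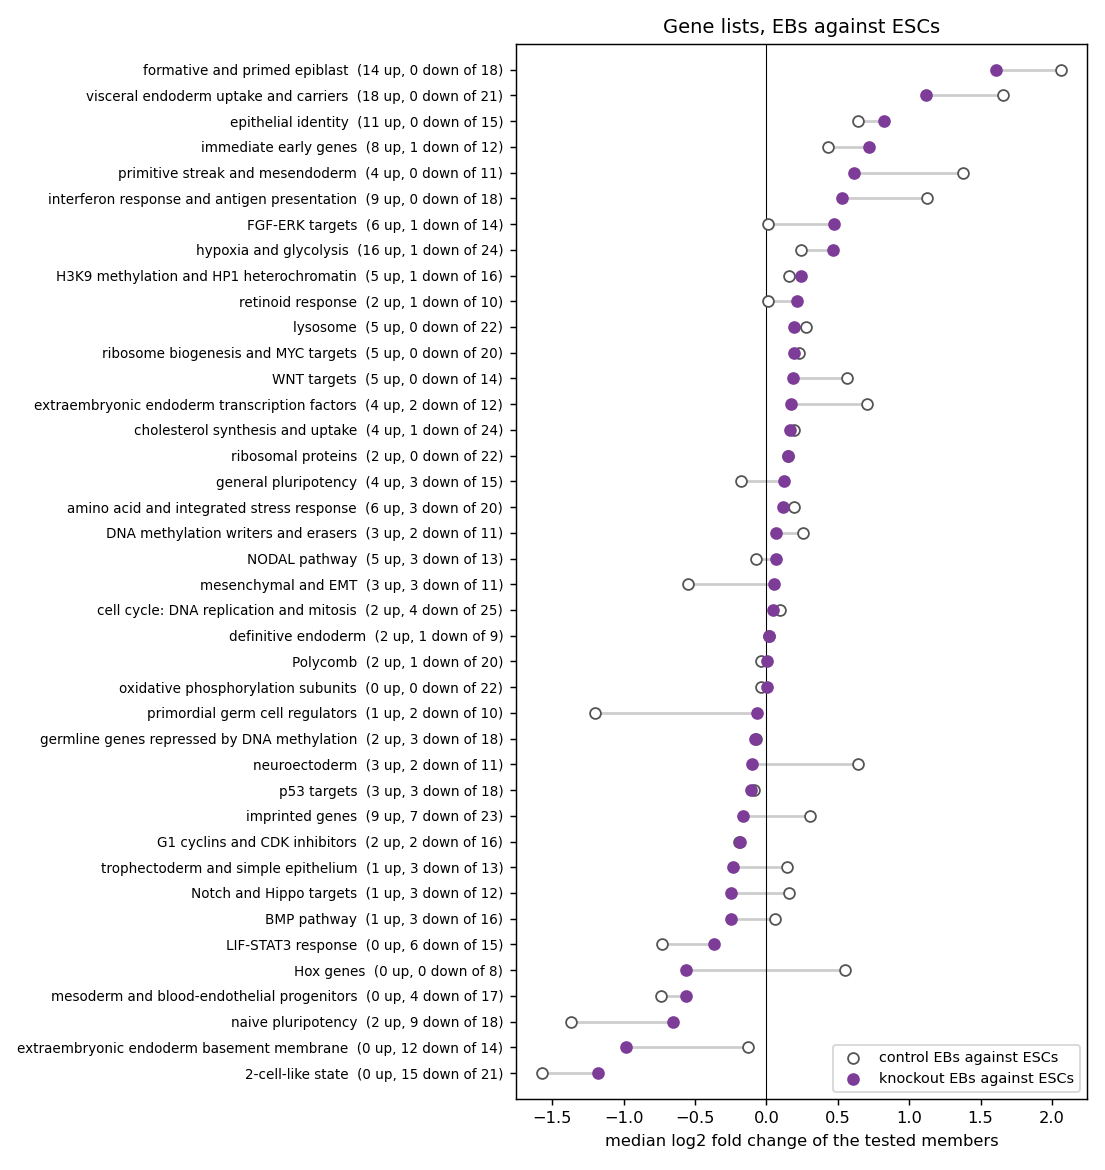
Median log2 change from ESC to EB (x axis) over the tested members of each gene list, with filled points for knockout, open points for control and the knockout counts beside each name. The lists of other cell types are not drawn; the formative list lies at 1.61 in knockout and 2.07 in control, and the basement membrane list at -0.98 and -0.13.

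The naive pluripotency network went down in knockout EBs. Tfcp2l1, a transcription factor of naive ESCs (chr1:118627945-118685168), stood at 285 and 320 CPM in the ESC libraries and at 66.3 and 67.7 CPM in the EB libraries. Its log2 change was -2.17 ± 0.10 (edgeR's quasi-likelihood test, adjusted p = 2.495e-06). Nanog, the homeodomain factor that stabilises self-renewal, went from 516 and 473 to 193 and 184 CPM (-1.39 ± 0.10, adjusted p = 2.274e-05). For both genes every EB library lay below every ESC library by a wide margin.

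Klf4, a Krüppel-like factor downstream of LIF, stood at 121 and 93.0 CPM in ESCs and 40.1 and 46.3 CPM in EBs (-1.31 ± 0.14, adjusted p = 0.000221). Zfp42 (REX1), a widely used marker of naive cells, went from 599 and 725 to 378 and 368 CPM (-0.83 ± 0.09, adjusted p = 0.000307). Esrrb, an orphan nuclear receptor, went from 377 and 308 to 206 and 187 CPM (-0.80 ± 0.11, adjusted p = 0.00124). None of these groups overlapped. Tcl1, an AKT coactivator, fell by 1.18 ± 0.11 and Tet2, a 5-methylcytosine dioxygenase, by 0.99 ± 0.13 on the log2 scale.

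Of 18 naive genes tested, 9 fell, 2 rose and 7 did not pass, with a median of -0.66, and 6 of the falls were held. The 2 that rose were not held. Dppa3 (STELLA), a maternal factor that protects DNA methylation, stood at 9.55 and 13.8 CPM in ESCs and 17.6 and 19.1 CPM in EBs (0.65 ± 0.20, adjusted p = 0.0482), a call lost in 7 of the 8 fits that leave out 1 library. Klf2 stood at 156 and 74.5 CPM in the ESC libraries, which are themselves 2-fold apart, and at 209 and 198 CPM in EBs (adjusted p = 0.0478). In control cells 17 of the 18 fell and 0 rose, with a median of -1.37. In absolute log2 change the knockout response was smaller than the control response in 17 of the 18 genes, against 8891 of all 17125 tested. The 2 responses had the same sign in 15 of the 18. The difference passed the test for 8: Tfcp2l1, Tcl1, Tet2, Zfp42, Esrrb, Nr5a2, Manba and Dppa3.

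The size of that difference is seen in single genes. Tfcp2l1 in control cells went from 377 and 393 CPM to 32.8 and 30.2 CPM, a change of -3.61 against -2.17 in knockout (difference 1.43 ± 0.13, adjusted p = 0.00245). Tcl1 went from 73.4 and 71.6 to 9.68 and 11.1 CPM in control but from 66.4 and 68.8 to 31.3 and 28.3 CPM in knockout (difference 1.63 ± 0.16, adjusted p = 0.0036). Zfp42 went from 957 and 917 to 272 and 279 CPM in control (difference 0.94 ± 0.13, adjusted p = 0.0114). For Nanog (difference 0.59 ± 0.14, adjusted p = 0.0908) and Klf4 (0.85 ± 0.20, adjusted p = 0.0781) the difference did not pass.

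Of 15 general pluripotency genes tested, 4 rose, 3 fell and 8 did not pass (median 0.12), and 1 rise and 2 falls were held. Without knockout ESC replicate 1 there were 8 higher and 5 lower (median 0.25), and without replicate 2 the median was 0.04. Pou5f1 did not pass (log2 difference 0.28 ± 0.10, adjusted p = 0.0895), but its log2 difference ranged from 0.13 to 0.45 with 1 library left out. Sox2, its HMG-box partner, stood at 326 and 237 CPM in ESCs and 314 and 328 CPM in EBs, so that the groups overlapped (0.19 ± 0.13, adjusted p = 0.357). That value depends on the ESC library: it passed without knockout ESC replicate 1 (adjusted p = 0.00137) and was -0.02 without replicate 2. Lin28a, an RNA-binding protein that blocks let-7 maturation, rose from 156 and 144 to 263 and 255 CPM (0.79 ± 0.08, adjusted p = 0.000221).

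Formative genes rose, with few exceptions. Fgf5, the growth factor that marks the epiblast after implantation (chr5:98254184-98277030), stood at 3.06 and 2.69 CPM in knockout ESCs and at 32.2 and 31.0 CPM in knockout EBs (3.45 ± 0.16, adjusted p = 2.495e-06). Pou3f1 (OCT6), a POU factor of the epiblast, went from 7.29 and 4.003 to 50.5 and 44.0 CPM (3.06 ± 0.22, adjusted p = 1.8e-05). Otx2, a homeodomain factor that redirects OCT4 to new enhancers, went from 74.8 and 85.3 to 237 and 218 CPM (1.505 ± 0.10, adjusted p = 1.765e-05). All 3 were held, and their EB and ESC values did not overlap.

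Zic2, a zinc finger factor of the primed epiblast, rose from 4.74 and 2.69 to 41.3 and 40.9 CPM (3.47 ± 0.20, adjusted p = 4.938e-06). Lef1, a nuclear partner of beta-catenin, rose from 3.14 and 3.49 to 34.7 and 32.9 CPM (3.35 ± 0.17, adjusted p = 2.495e-06). The de novo DNA methyltransferases rose as well. Dnmt3b went from 275 and 252 to 782 and 786 CPM (1.57 ± 0.08, adjusted p = 4.2e-06) and Dnmt3a from 151 and 132 to 442 and 458 CPM (log2 change 1.67 ± 0.10).

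Of 18 formative genes tested, 14 rose, 0 fell and 4 did not pass, with a median of 1.61. Of the rises 13 were held, and the count was 13 without knockout EB replicate 1 and 14 without replicate 2. In control cells 15 rose and 1 fell (median 2.07). The knockout rise was smaller by the test of the difference for 4 genes, namely Fgf5, Dnmt3b, Sall2 and Car4. Fgf5 reached 58.0 and 64.3 CPM in control EBs from 1.55 and 1.84 CPM (difference -1.70 ± 0.25, adjusted p = 0.013). Dnmt3b reached 1261 and 1388 CPM from 187 and 204 CPM (difference -1.19 ± 0.12, adjusted p = 0.0036). Otx2 changed by 1.505 in knockout and 1.48 in control, a difference of 0.03 ± 0.14 (adjusted p = 0.969), and Dnmt3a by 1.67 and 1.64.

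**Figure D3:**
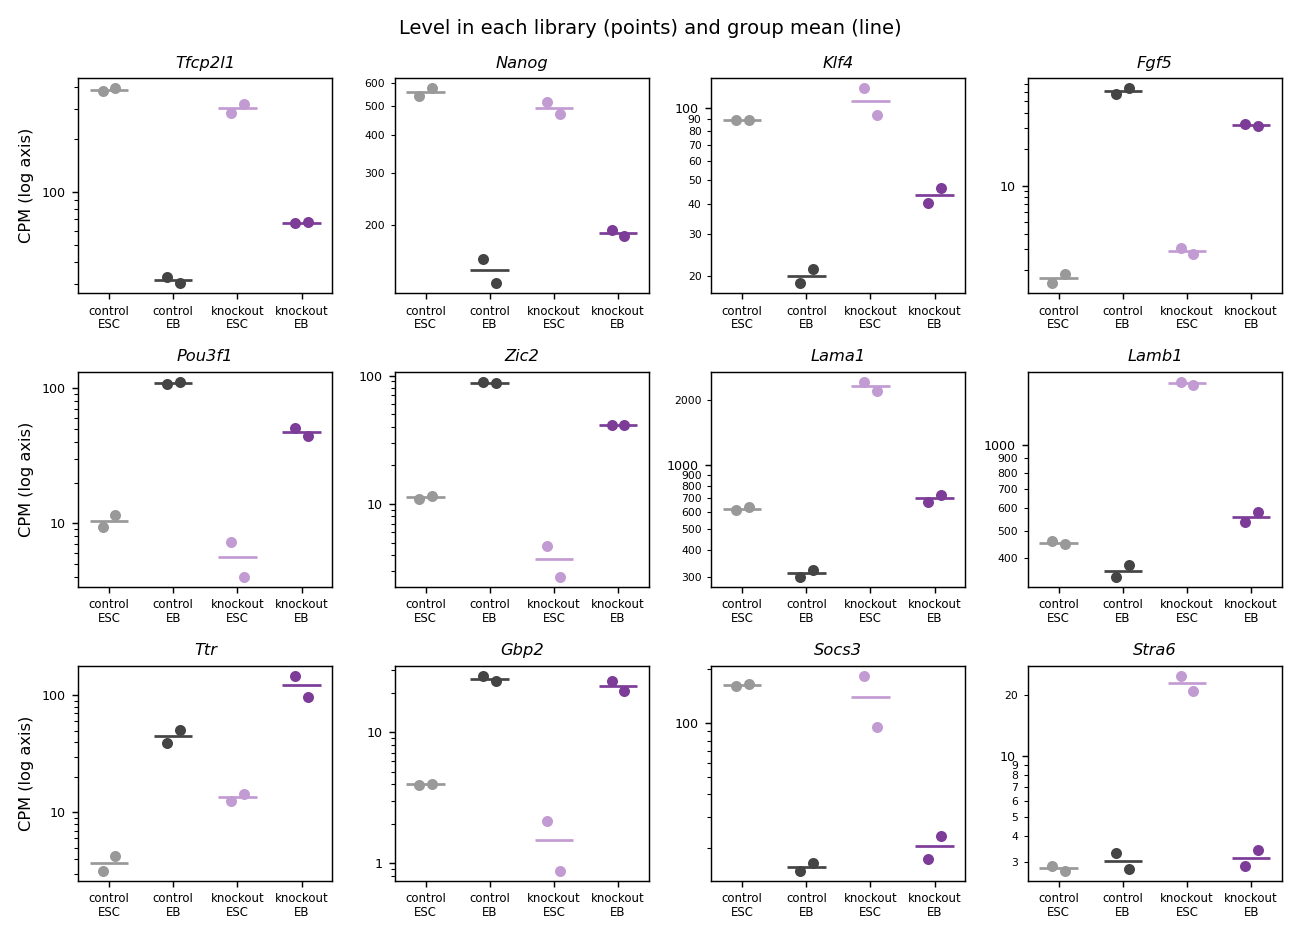
Levels of single genes in each library. The y axis is CPM on a log scale, each point is 1 library of the 4 groups and each line a group mean; Tfcp2l1 falls in both genotypes but ends higher in knockout EBs (66.3 and 67.7 CPM) than in control EBs (32.8 and 30.2 CPM), and Fgf5 ends lower (32.2 and 31.0 against 58.0 and 64.3 CPM).

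The extraembryonic endoderm programme was uneven in the knockout. Most genes that build the basement membrane fell, and most genes of uptake and transport rose, some by little. The transcription factors showed no common direction. Lama1, the laminin alpha chain of embryonic basement membranes (chr17:67697259-67822647), stood at 2436 and 2220 CPM in knockout ESCs and at 668 and 727 CPM in knockout EBs (-1.74 ± 0.08, adjusted p = 2.495e-06). Lamb1, the matching beta chain (chr12:31265234-31329644), went from 1667 and 1633 to 536 and 583 CPM (-1.56 ± 0.08, adjusted p = 2.495e-06). For each chain the ESC libraries lay far above the EB libraries.

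Lamc1, the gamma chain, went from 2061 and 1899 to 840 and 897 CPM (-1.19 ± 0.07, adjusted p = 9.542e-06). P4ha2, a prolyl hydroxylase that stabilises collagen, went from 303 and 295 to 94.4 and 101 CPM (-1.61 ± 0.09, adjusted p = 4.938e-06). Sparc, a collagen-binding matrix protein made in large amounts by parietal endoderm, went from 3368 and 3163 to 1539 and 1803 CPM (-0.97 ± 0.08, adjusted p = 4.824e-05). The collagen chaperone Serpinh1 (-1.06 ± 0.13) and Col4a1, a type IV collagen chain (-0.92 ± 0.17, adjusted p = 0.00616), fell too, the latter from 4549 and 2807 CPM in the ESC libraries.

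Of 14 basement membrane genes tested, 12 fell, 0 rose and 2 did not pass, namely Nid2 and Lama5 (median -0.98), and 10 falls were held. In control cells 6 fell and 0 rose (median -0.13), from lower starting levels. Lama1 went from 614 and 634 to 300 and 325 CPM there (-0.998), Lamb1 from 459 and 450 to 344 and 378 CPM (-0.33) and Sparc from 836 and 847 to 885 and 905 CPM (0.09). The knockout fall was larger by the test of the difference for 8 of the 14, among them Lamb1 (difference -1.23 ± 0.11, adjusted p = 0.00245) and P4ha2 (-1.21 ± 0.13, adjusted p = 0.00389). Nid1, the nidogen that links laminin to collagen, was the exception: it fell less in knockout (225 and 243 to 118 and 124 CPM) than in control (200 and 194 to 51.1 and 50.03 CPM), with a difference of 1.01 ± 0.12 (adjusted p = 0.00676). Even after its fall Lama1 in knockout EBs remained above the level of control ESCs in both libraries.

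The carriers and receptors of visceral endoderm went the other way. Ttr (transthyretin), which carries thyroid hormone and retinol, rose from 12.5 and 14.4 to 147 and 97.6 CPM (3.18 ± 0.22, adjusted p = 1.752e-05). Apob, the structural protein of lipoproteins, rose from 34.5 and 40.8 to 308 and 228 CPM (2.83 ± 0.16, adjusted p = 4.938e-06). Afp (alpha-fetoprotein) rose from 0.875 and 0.655 to 9.49 and 12.1 CPM (3.80 ± 0.36, adjusted p = 0.000119).

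Apob and Ttr are also made by adult liver, and both lie higher in the EB library with liver RNA, whose part in these rises was not tested, but each was also called without that library, and Afp was higher in the other EB library. Apoa1, the main protein of high density lipoprotein, had 112 CPM in EB replicate 1 and 41.1 CPM in replicate 2, against 4.23 and 5.61 CPM in ESCs (3.96 ± 0.42, adjusted p = 0.000214), and was held. Trf (transferrin) had 177 CPM in replicate 1 and 11.2 CPM in replicate 2, and its call (adjusted p = 0.0372) was lost without replicate 1 (adjusted p = 0.942).

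Of 21 carrier and uptake genes tested, 18 rose, 0 fell and 3 did not pass (median 1.12). Without knockout EB replicate 1 there were 11 that rose and the median was 0.75. All 11 were held. In control cells 15 rose and 0 fell (median 1.65). The knockout rise was smaller by the test of the difference for 5, namely Dab2, Cubn, Lrp2, Amot and Ctsh, each of which stood higher in both knockout ESC libraries than in either control ESC library. Dab2, an endocytic adaptor, went from 804 and 831 to 1085 and 1203 CPM in knockout (0.48 ± 0.08, adjusted p = 0.0023) and from 190 and 193 to 549 and 529 CPM in control. Cubn (cubilin), a receptor for vitamin and protein uptake, went from 952 and 1141 to 1260 and 1381 CPM in knockout (0.34 ± 0.09, adjusted p = 0.0383; 0.082 without EB replicate 1 and 0.249 without replicate 2) and from 202 and 215 to 562 and 596 CPM in control. The differences were -1.01 for Dab2 (adjusted p = 0.00389) and -1.14 for Cubn (adjusted p = 0.00573).

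**Figure D4:**
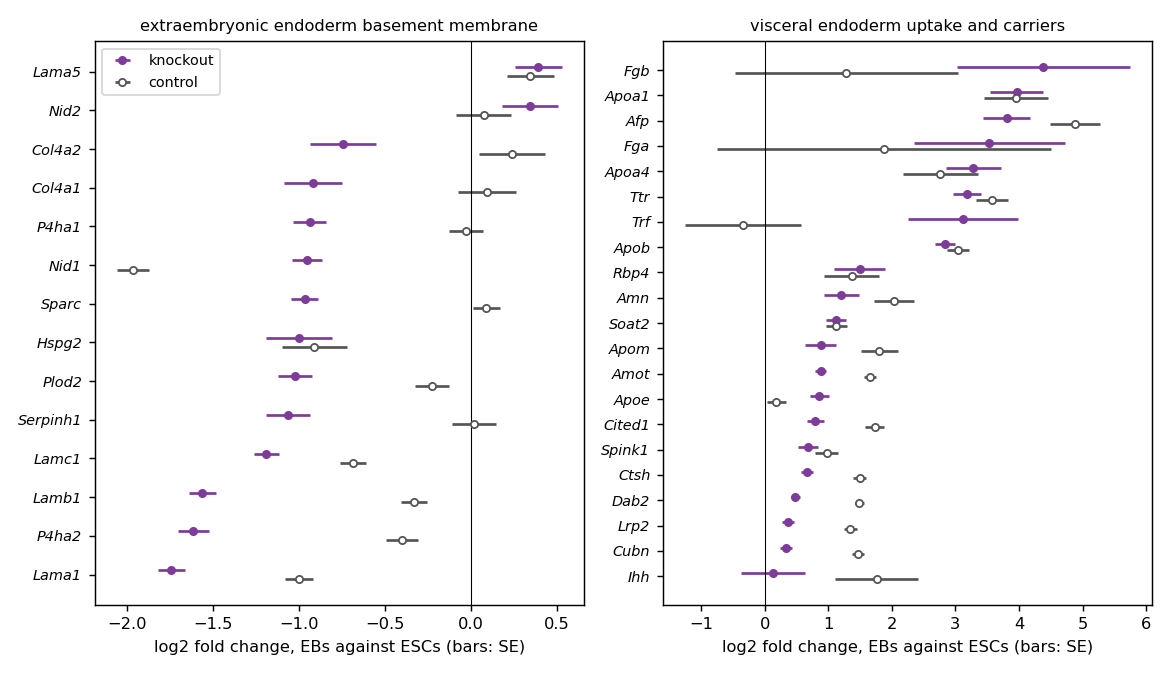
Log2 change from knockout ESCs to knockout EBs of basement membrane genes (left) and visceral endoderm carriers (right). Filled points are knockout estimates, open points control estimates and bars their SE; 12 of 14 basement membrane genes passed as lower and 18 of 21 carrier genes as higher.

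Among 12 transcription factors of the lineage, 4 rose, 2 fell and 6 did not pass (median 0.17), and 3 rises and 0 falls were held. Without knockout ESC replicate 1 there were 6 higher and 1 lower (median 0.61), and without replicate 2 there were 4 and 4 (median -0.05). Hnf4a, a nuclear receptor that drives carrier genes in visceral endoderm, rose from 24.1 and 17.0 to 61.6 and 54.0 CPM (1.495 ± 0.17, adjusted p = 0.000282). Gata6, which initiates the lineage, stood at 80.5 and 54.4 CPM in ESCs and 42.2 and 47.9 CPM in EBs and did not pass (-0.58 ± 0.19, adjusted p = 0.0587). Its log2 change ranged from -0.84 to -0.26 with 1 library left out.

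Gata4 did not pass either (166 and 105 against 110 and 113 CPM, adjusted p = 0.286). Sox17 stood at 61.6 and 35.8 CPM in ESCs and 25.8 and 27.5 CPM in EBs (-0.87 ± 0.22, adjusted p = 0.0248), a call lost without EB replicate 1 (0.158) or replicate 2 (0.0997). Sox7 went from 48.2 and 39.2 to 26.1 and 27.6 CPM (-0.70 ± 0.16, adjusted p = 0.0169; 0.149 and 0.0869 without EB replicates 1 and 2) and changed by 0.73 in control (difference -1.44 ± 0.24, adjusted p = 0.0238). For all 4 factors ESC replicate 1 lay above ESC replicate 2.

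The counts of germ layer genes are set against all genes tested, of which 8.23% were higher and 7.11% lower. Of 15 streak and mesendoderm genes 11 could be tested, 4 rose and 0 fell (median 0.62), with 3 held (median 0.21 with the GC trend removed, 1.48 without knockout ESC replicate 1). Eomes, a T-box factor of the early streak and of visceral endoderm, rose from 11.01 and 10.5 to 29.8 and 28.0 CPM (1.43 ± 0.15, adjusted p = 0.000246). Lhx1, a LIM factor of the anterior streak and visceral endoderm, rose from 2.70 and 2.33 to 16.4 and 20.4 CPM (2.87 ± 0.29, adjusted p = 0.000159). Wnt8a, a WNT ligand of the streak, had 2 counts over the ESC libraries and 134 over the EB libraries, a ratio of 69.6 (95% counting interval 18.9 to 580).

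Mixl1 stood at 1.17 and 0.73 CPM in ESCs and 1.66 and 1.60 CPM in EBs (adjusted p = 0.422). Of 24 mesoderm and blood-endothelial genes 17 were tested, 0 rose and 4 fell (median -0.57), with 1 held, and 2 fell without knockout ESC replicate 2 and with either EB library left out. The 1 held was Pdgfra, a receptor of both mesoderm and primitive endoderm, which went from 110 and 120 to 36.5 and 41.2 CPM (-1.57 ± 0.11, adjusted p = 1.785e-05), against a change of -0.42 in control (difference -1.15 ± 0.16, adjusted p = 0.0114). Of 20 neuroectoderm genes 11 were tested, 3 rose and 2 fell (median -0.10). The median was 0.23 without knockout ESC replicate 1, -0.41 without replicate 2 and -0.31 without EB replicate 2, and with either EB library left out 1 rose and 0 fell. Sox11, an SRY-related factor of neural progenitors, rose from 10.7 and 6.33 to 27.4 and 29.2 CPM (1.73 ± 0.20, adjusted p = 0.000365) and was the 1 member held. Sox1, which marks committed neural plate, stood at 4.23 and 2.98 CPM in ESCs and 1.51 and 0.761 CPM in EBs (-1.66 ± 0.43, adjusted p = 0.0272), a call lost in 7 of the 8 fits without 1 library. Of 9 definitive endoderm genes 2 rose and 1 fell (0 with either EB library left out), and of 8 Hox genes with enough counts 0 passed in either direction by edgeR or DESeq2 (1 was lower at an unadjusted p below 0.05).

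Epithelial genes rose. Grhl2, a Grainyhead factor that opens epithelial enhancers, went from 24.4 and 27.6 to 87.0 and 87.5 CPM (1.75 ± 0.10, adjusted p = 6.306e-06), and the splicing regulator Esrp1 from 31.6 and 33.4 to 78.7 and 81.1 CPM (log2 change 1.30). Cdh1 (E-cadherin) went from 355 and 330 to 635 and 652 CPM (0.91 ± 0.08, adjusted p = 5.089e-05). Of 15 epithelial genes 11 rose, 0 fell and 4 did not pass (median 0.82), with 8 held, and 9 rose in control (median 0.64). Vim (vimentin), an intermediate filament of mesenchymal and other migratory cells, went from 128 and 142 to 70.2 and 72.1 CPM (log2 change -0.93). Of the 11 mesenchymal genes tested 3 rose and 3 fell, with 0 higher without knockout EB replicate 1 and 1 in each direction without replicate 2.

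The 2-cell-like genes, which a rare fraction of ESCs shares with the 2-cell embryo, fell. Pramel6, a member of a family of leucine-rich proteins, went from 57.8 and 81.8 to 11.5 and 12.9 CPM (-2.52 ± 0.21, adjusted p = 5.592e-05). Zscan4d, a zinc finger gene that defines the state, went from 120 and 174 to 57.1 and 65.9 CPM (-1.26 ± 0.17, adjusted p = 0.000916). Of 21 tested genes 15 fell, 0 rose and 6 did not pass (median -1.18), with 9 held, and the falls numbered 9 without knockout EB replicate 1 and 11 without replicate 2. In control 13 fell (median -1.57), and 0 of the 21 passed edgeR's test of the difference (6 at an unadjusted p below 0.05, 1 by DESeq2). The Pramel, Zscan4, Usp17l, Tdpoz and Tcstv genes have near-identical copies, between which the counting may have split reads, so that values of 1 copy are uncertain. Of primordial germ cell regulators, 1 of 10 rose and 2 fell in knockout (0 and 1 with either knockout EB library left out), while 0 rose and 8 fell in control. Kit, the receptor of stem cell factor, went from 150 and 167 to 50 and 57.8 CPM in knockout (log2 change -1.55, adjusted p = 2.119e-05).

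A group of interferon-stimulated and antigen-presentation genes rose in the EBs of the knockout. Interferons act in part through IRF factors, which bind paired GAAA elements in the promoters of their targets. Promoters of the 3 members that both rose and hold such a pair are shown, each as a 60-base stretch of the RefSeq promoter (GRCm38.p6) read along the strand of the gene, with the matches to a pair of GAAA elements set 2 bases apart, on either strand and overlaps included, in capitals. The windows are chr4:156200862-156200921 (minus strand) for Isg15, chr19:34640760-34640819 (plus) for Ifit1 and chr8:71537568-71537627 (minus) for Bst2.
Isg15: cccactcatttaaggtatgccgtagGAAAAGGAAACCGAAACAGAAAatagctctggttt
Ifit1: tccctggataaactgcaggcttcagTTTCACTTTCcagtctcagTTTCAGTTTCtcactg
Bst2: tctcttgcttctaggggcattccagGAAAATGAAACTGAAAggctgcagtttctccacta
The pair was found in 3 of the 8 members that rose and have a promoter in the table, in 7 of the 16 tested members with a promoter, and in 3.44% of all 32851 promoters of the same length (3.41% of the 11665 that belong to tested genes). A match is a description of these letters, not a binding site.

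None of those 3 was held. Isg15, a ubiquitin-like modifier, stood at 0.0729 and 0.291 CPM in ESCs and 1.66 and 1.22 CPM in EBs (adjusted p = 0.0192; 0.156 without EB replicate 1 and 0.0727 without replicate 2). Ifit1, an RNA-binding antiviral protein, went from 0.583 and 0.437 to 3.09 and 2.82 CPM (adjusted p = 0.0157; 0.114 and 0.0774). Bst2 (tetherin) went from 78.5 and 70.8 to 103 and 94.6 CPM (0.41 on the log2 scale, adjusted p = 0.0218; 0.203 and 0.0759). The EB values were above the ESC values in each case.

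The held members of the list were 4. Oasl2, a member of the oligoadenylate synthetase family, rose from 1.17 and 0.582 to 22.7 and 17.8 CPM (4.52 ± 0.31, adjusted p = 1.754e-05). Psmb8, a subunit of the immunoproteasome, rose from 0.146 and 0.364 to 5.65 and 5.10 CPM (4.35 ± 0.39, adjusted p = 8.472e-05). Irf1, the interferon regulatory factor, rose from 32.3 and 31.7 to 140 and 125 CPM (2.05 ± 0.10, adjusted p = 2.495e-06). Tapbp (tapasin), which loads peptides onto class I molecules, rose from 22.7 and 16.5 to 49.9 and 49.99 CPM (1.35 ± 0.14, adjusted p = 0.000237). All 4 had EB values above any ESC value.

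Of 18 tested members 9 rose, 0 fell and 9 did not pass (median 0.53), with 4 without knockout EB replicate 1 and 5 without replicate 2, and the median was 0.35 without knockout ESC replicate 2. B2m, the light chain of class I molecules, did not pass (log2 difference -0.32, adjusted p = 0.142). In control 12 rose and 2 fell (median 1.12), and 0 members passed edgeR's test of the difference (2 higher and 6 lower at an unadjusted p below 0.05, 0 by DESeq2). Outside the list, the guanylate-binding proteins were among the 12 highest held rises. Gbp2 (chr3:142620602-142638008) rose from 2.12 and 0.873 to 24.8 and 20.6 CPM (3.92 ± 0.30, adjusted p = 2.844e-05), and its near copy Gbp2b, between which reads may be split, rose by 3.93 ± 0.27. Both genes were chosen for their rise, so their promoters do not show how common the pair is among genes that rose. The held list members Oasl2, Psmb8, Irf1 and Tapbp are not among the 7 tested members with the pair. The promoters of Gbp2 and Gbp2b hold it, at chr3:142620579-142620638 for Gbp2 and chr3:142594685-142594744 for Gbp2b (both plus strand).
Gbp2: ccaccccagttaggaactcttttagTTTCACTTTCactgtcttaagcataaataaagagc
Gbp2b: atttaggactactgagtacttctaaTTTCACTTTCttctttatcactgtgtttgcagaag
Cd274 (PD-L1), an interferon-inducible checkpoint ligand, rose from 0.510 and 0.582 to 6.33 and 6.24 CPM (3.50 ± 0.38, adjusted p = 0.000243).

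Of 15 LIF-STAT3 genes 6 fell, 0 rose and 9 did not pass (median -0.37), and 10 fell in control. Of the falls 3 were held, and the count was 3 without knockout EB replicate 1, 4 without EB replicate 2 and 9 without ESC replicate 2. Socs3, the feedback inhibitor that STAT3 induces, stood at 184 and 95.6 CPM in ESCs and 17.5 and 23.5 CPM in EBs (-2.77 ± 0.27, adjusted p = 0.000119), and the LIF receptor gene Lifr went from 151 and 186 to 81.5 and 75.3 CPM (-1.10 ± 0.12, adjusted p = 0.000273). The STAT motif TTCCNGGAA was found in 1 of 13 promoters of the list, that of Cish, which did not pass, in 0 of the 6 promoters of members that fell, in 1.48% of the promoters of all genes tested and in 1.15% of all promoters.

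The NODAL pathway changed in both directions. Its feedback inhibitor Lefty1 rose from 46.1 and 31.1 to 187 and 187 CPM (2.27 ± 0.15, adjusted p = 1.58e-05), more than in control, where it went from 89.8 and 89.4 to 182 and 193 CPM (difference 1.21 ± 0.21, adjusted p = 0.025). Fst (follistatin), which binds activin, fell from 46.5 and 53.1 to 10.99 and 12.02 CPM (-2.11 ± 0.16, adjusted p = 2.464e-05), against -0.62 in control (difference -1.49 ± 0.23, adjusted p = 0.0133). Inhbb, a subunit of activin B, fell by 2.47 on the log2 scale, and Nodal itself did not pass (57.6 and 53.1 against 68.6 and 69.5 CPM, adjusted p = 0.0568). Of the 13 tested genes 5 rose and 3 fell (2 fell with either EB library left out).

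Of 14 WNT targets 5 rose and 0 fell (median 0.19), with 4 held. That median rests on the ESC libraries: it was 1.10 without knockout ESC replicate 1 and -0.07 without replicate 2. Among them were Axin2, a negative feedback regulator, from 19.8 and 14.2 to 34.6 and 39.3 CPM (log2 change 1.12), and Notum, an extracellular WNT deacylase, with a log2 change of 1.07 in knockout and -0.25 in control (adjusted p of the difference 0.0443). Of 14 FGF-ERK targets 6 rose and 1 fell, with 4 held, and 9 rose without knockout ESC replicate 1. Egr1, an immediate early zinc finger factor, stood at 29.8 and 25.04 CPM in ESCs and at 96.2 and 187 CPM in the EB libraries (2.37 ± 0.26, adjusted p = 0.000246).

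Immediate early genes as a group rose in 8 of 12 and fell in 1 (median 0.72), with 4 held and 4 rises left without EB replicate 2. The median was 1.09 without knockout ESC replicate 1 and 0.47 without replicate 2. EB replicate 2 lay above replicate 1 in 10 of the 12: Fos stood at 16.04 and 40.3 CPM and Fosb at 5.50 and 37.2 CPM in the EB libraries, against 4.45 and 4.08 CPM and 0.729 and 0.655 CPM in ESCs. With only the 4 knockout libraries fitted Fosb did not pass (adjusted p = 0.0547). Of 16 BMP genes 1 rose and 3 fell, of 10 retinoid genes 2 rose and 1 fell, and of 12 Notch and Hippo targets 1 rose and 3 fell. These small counts are to be read against 8.23% of all genes tested higher and 7.11% lower. Without 1 knockout library the falls of the BMP list ranged from 1 (either EB library) to 6 (ESC replicate 2) and those of the Notch and Hippo list from 0 (EB replicate 1) to 4 (ESC replicate 2).

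Glycolytic and hypoxia-inducible genes rose, mostly by less than 2-fold. Slc16a3, the lactate exporter MCT4, went from 159 and 98.2 to 338 and 314 CPM (log2 change 1.35). Egln3, an oxygen sensor, had a log2 change of 1.04. Pdk1, a kinase that inhibits pyruvate dehydrogenase, went from 170 and 185 to 334 and 305 CPM (0.85). Bnip3, a mitophagy receptor, went from 56.4 and 58.5 to 102 and 91.8 CPM (0.75 ± 0.10, adjusted p = 0.00113) and did not pass in control, where it began at 100.2 and 104 CPM (difference 0.81 ± 0.14, adjusted p = 0.0288). Pkm (0.53), Ldha (0.50) and Eno1 (0.50; adjusted p = 0.0502 with only the 4 knockout libraries fitted) are enzymes of lower glycolysis.

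Of 24 genes 16 rose, 1 fell and 7 did not pass (median 0.47), with 13 held. The 1 that fell was Hk2. With only the 4 knockout libraries fitted 8 rose and 0 fell. In control 9 rose and 3 fell (median 0.24), and the knockout response was higher for 4 by the test of the difference. Of subunits of oxidative phosphorylation, 0 of 22 passed in either direction in the same edgeR test (2 were lower at an unadjusted p below 0.05, and 0 passed by DESeq2), with a median of 0.01.

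The counts of the remaining lists are to be read against 8.23% of all genes higher and 7.11% lower. They moved with 1 library left out, as did the count over all genes, also where a control library was left out. Such a fit has fewer libraries to estimate the spread from, so a lost call alone does not show what that library holds. Of 25 cell cycle genes 2 rose and 4 fell, but 6 and 11 without ESC replicate 1 and 0 and 1 with either EB library left out. Of 22 ribosomal protein genes 2 rose, against 8 without ESC replicate 1, 16 without ESC replicate 2 and 0 with either EB library left out. Of 20 genes of ribosome biogenesis and MYC targets 5 rose and 0 fell, against 10 higher with either ESC library left out, 2 with either EB library left out and 14 with the GC trend removed. Of 22 lysosome genes 5 rose and 0 fell, against 11 without ESC replicate 1, 11 with the GC trend removed, 1 without EB replicate 1 and 2 without EB replicate 2.

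Of 18 p53 targets 3 rose and 3 fell, against 6 and 7 without ESC replicate 1 and 0 and 1 without EB replicate 1. Of 20 Polycomb genes 2 rose and 1 fell, against 8 and 4 without ESC replicate 1 and 1 and 0 with either EB library left out. Of 20 genes of the integrated stress response 6 rose and 3 fell, and 3 and 1 with either EB library left out. Of 24 genes of cholesterol synthesis and uptake 4 rose and 1 fell, with 7 higher with either ESC library left out and 1 with either EB library left out. Of 16 genes of G1 control 2 rose and 2 fell (1 and 1 with either EB library left out, 3 and 4 without ESC replicate 1). Of 13 trophectoderm genes 1 rose and 3 fell (0 fell without EB replicate 1, 1 without replicate 2), and of 18 methylation-repressed germline genes 2 rose and 3 fell (1 and 1 with either EB library left out, 2 and 5 without ESC replicate 1).

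Imprinted genes, which are expressed from 1 parental copy, passed in both directions, 9 of 23 higher and 7 lower, with 3 and 2 held (5 and 2 without EB replicate 1, 4 and 4 without EB replicate 2, 9 and 4 without ESC replicate 2). Snrpn, expressed from the paternal copy, rose by 1.31 on the log2 scale, while Grb10 fell by 1.66 and Plagl1 by 1.78. Among H3K9 methylation and HP1 genes, the machinery of heterochromatin, 5 of 16 rose and 1 fell, the latter Cbx5 (HP1 alpha; log2 change -0.70), the 1 held member, and 8 rose without ESC replicate 1 and 1 with either EB library left out. Among DNA methylation genes 3 of 11 rose and 2 fell (6 and 3 without ESC replicate 1), with the de novo enzymes up and Tet1 (log2 change -0.65; adjusted p = 0.0552 with only the 4 knockout libraries fitted) and Tet2 down. Of adult liver genes, 13 of 17 tested passed as higher and 1 was held. In control 0 of the 17 passed by edgeR, adjusted or not, and 2 by DESeq2. Mat1a, the methionine adenosyltransferase of liver, stood at 61.0 CPM in EB replicate 1 and at 0.761 CPM in replicate 2.

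The largest held rises included Vrtn, a gene known from control of vertebral number, which went from 1.09 and 1.24 to 28.0 and 24.1 CPM (4.47 ± 0.19, adjusted p = 2.495e-06). Mgst1 (39.9 and 2.59 CPM in the EBs, 0.656 and 0.510 CPM in ESCs) reached as high a rank and passed with either EB library left out, but liver also expresses it, the EB replicates are over 10-fold apart, and it did not pass with only the 4 knockout libraries fitted (adjusted p = 0.09). The 12 largest falls were all held. Slc13a5, a citrate transporter, went from 77.4 and 74.9 to 7.46 and 9.28 CPM (-3.18 ± 0.17, adjusted p = 4.583e-06). Timp2, an inhibitor of matrix metalloproteinases, went from 43.2 and 28.5 to 4.37 and 2.74 CPM (-3.33 ± 0.28, adjusted p = 5.592e-05). Thbd (thrombomodulin), an endothelial and parietal endoderm surface protein, went from 23.0 and 23.2 to 2.79 and 3.20 CPM (-2.94 ± 0.25, adjusted p = 5.592e-05).

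Nog (noggin), a secreted BMP antagonist, went from 18.0 and 12.8 to 1.36 and 2.74 CPM (-2.91 ± 0.33, adjusted p = 0.000339), and the kinase gene Ptk6 from 20.3 and 11.3 to 1.21 and 1.45 CPM (-3.57 ± 0.40, adjusted p = 0.000305). Msln (mesothelin), Fndc1, Ptger3, Drp2, Ripor2, Kcnq5 and Myl3 completed the 12, with log2 changes from -2.90 (Kcnq5) to -3.93 (Myl3). For 4 genes the ESC level was several times that of control ESCs: Slc13a5 stood at 18.2 and 24.1 CPM there, Timp2 at 6.11 and 7.31 CPM, Thbd at 3.18 and 3.38 CPM and Ptk6 at 1.47 and 0.676 CPM.

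Where the genotypes responded differently, their levels mostly came closer together in EBs. Of the 127 genes with a higher response in knockout, 90 lay closer between genotypes in EBs than in ESCs, and the median log2 ratio of knockout to control went from -0.80 in ESCs to 0.27 in EBs. Of the 110 with a lower response, 94 lay closer, and the median ratio went from 1.52 to 0.32. Both stages enter the choice of these genes, so this is a description with no test. The share of all tested genes that lay closer in EBs was not taken, so neither count is set against a background. Of the 127, 59 passed in both genotypes, 43 in control alone and 25 in knockout alone, and of the 110 these counts were 46, 31 and 33. The 2 genotypes passed in opposite directions for 16 and 14 genes. All 127 and all 110 were also called after the trend of each library on GC content was removed. That fit called more genes, 429 with a higher and 278 with a lower response.

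Stra6, the membrane receptor for retinol-binding protein (chr9:58063788-58153996), had the lowest difference. In knockout its level went from 24.8 and 20.96 CPM as ESCs to 2.86 and 3.42 CPM as EBs, and in control from 2.85 and 2.70 CPM to 3.32 and 2.75 CPM (difference -2.99 ± 0.33, adjusted p = 0.00418). Only the knockout ESC libraries lay apart. Plat, the tissue plasminogen activator, was also highest there, with 33.3 and 36.6 CPM in the ESCs of the knockout, 8.13 and 8.52 CPM in its EBs and a range of 4.24 to 5.29 CPM over the control libraries (difference -2.11, adjusted p = 0.00789). Pdpn (podoplanin), a surface glycoprotein, fell in knockout from 26.9 and 23.0 to 10.8 and 11.03 CPM and rose in control from 11.6 and 10.8 to 19.4 and 19.1 CPM.

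In the other direction, Mobp, a myelin protein gene, stood in knockout at 1.39 and 0.801 CPM before and 1.66 and 1.52 CPM after EB culture, but fell in control from 8.06 and 10.2 to 1.06 and 1.41 CPM (difference 3.42 ± 0.51, adjusted p = 0.0133). Ntn1 (netrin-1), a secreted guidance and survival cue, stood in knockout at 38.6 and 27.0 CPM before and 30.1 and 25.2 CPM after, which overlap, and fell in control from 96.2 and 96.3 to 23.8 and 17.3 CPM (difference 1.97, adjusted p = 0.00994). Trh, the gene of thyrotropin-releasing hormone, rose in knockout from 230 and 261 to 497 and 519 CPM (1.05 ± 0.09) and fell in control from 334 and 348 to 280 and 280 CPM (adjusted p of the difference 0.00245).

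**Figure D5:**
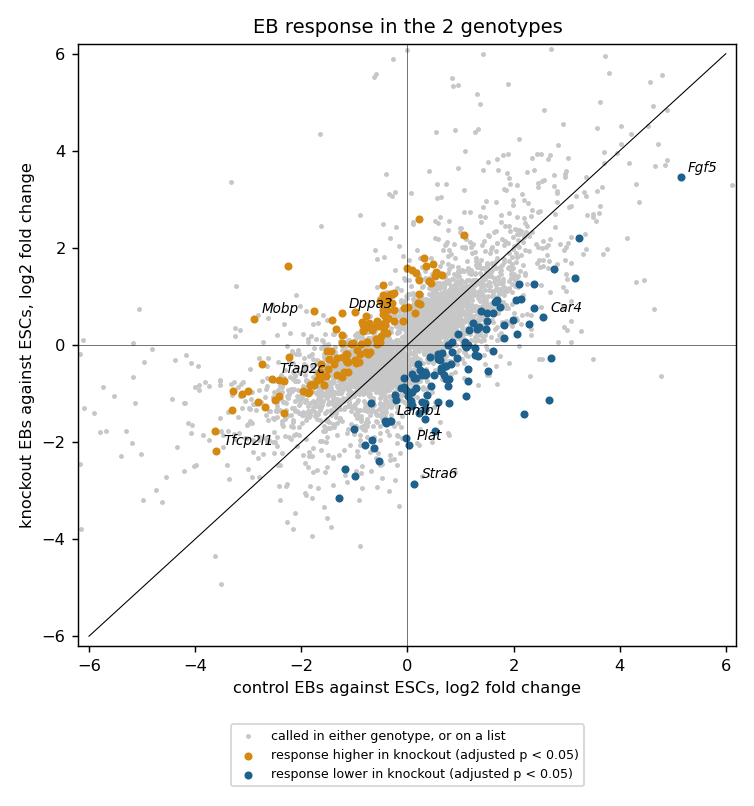
Log2 change from ESC to EB in control (x axis) and in knockout (y axis). Genes that passed the test of the difference are coloured, 127 with a higher and 110 with a lower response in knockout; 30 of 4582 plotted genes lie outside the axes.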

How the data were processed

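RNA-seq of 8 mouse R1 libraries was used. The deposited table gives the authors' whole-number counts per gene, not normalized, and the tools named in the submitters' processing notes are HISAT2, featureCounts and DESeq2, on mm10. Versions, strand setting and multimapping were not given in the sources used here, so antisense partners cannot be told apart. Of 55401 Ensembl genes, 23376 had 0 counts throughout, 55141 matched a symbol and 54821 had coordinates in GENCODE M21. Groups came from the labels.

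After filterByExpr (17125 genes), TMM scaling and a fit of all 8 libraries with 1 mean per group (biological coefficient of variation 0.132), edgeR's quasi-likelihood test gave EB against ESC in each genotype and the difference of the 2 responses. P-values were adjusted by Benjamini-Hochberg over all genes, with a threshold of 0.05. The fit assumes 1 spread for all groups, while replicates of knockout ESCs were farther apart than those of the other groups. The tools were edgeR 4.0.16, limma 3.58.1 and DESeq2 1.42.0 in R 4.3.3, and pandas 2.3.3 and matplotlib 3.10.9 in Python 3.11.15. The procedure was run on simulated counts in which all groups shared their gene means, apart from genes changed on purpose, and their spread. They held no GC trend and no liver RNA in a single library, so that run does not cover these features.

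Named genes were Zfp462, 14 fixed markers, the 12 highest and 12 lowest log2 changes among called genes with a mean of 5 CPM or more in the group that is higher and separate libraries, the 8 highest and 8 lowest differences, and up to 5 members of each list by adjusted p; unnamed gene models were passed over, and a few genes within these rules are left out of the text. A second ranking among genes called with either knockout EB library left out was added after values were seen, and genes named outside these rules were chosen after their values were seen. Members, comparisons and the 43 lists (768 list-gene pairs) were chosen with earlier results of these data known. Alternatives were median-of-ratios factors, library totals, other filters, DESeq2, a replicate block, removal of the GC trend (spline, 5 degrees of freedom), only the libraries compared, a 2-fold threshold and each library left out. The lists' motifs were searched in RefSeq promoters (250 bases before to 50 after the start). Whether same-numbered libraries are paired is not known (see the closing section).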

Additional observations from a re-analysis of the deposited data

Results flagged for a closer look

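For the genes below the EB response of the knockout differed from that of the control by edgeR's test of the difference. The differences given are log2 responses in knockout minus those in control. The response was higher in knockout for Mobp (3.42), Epp13 (2.46), the dystrobrevin gene Dtna (2.39), the meiotic gene Meiob (2.34), Cpsf4l (2.11), the adhesion receptor gene Adgrd1 (2.06) and Ntn1 (1.97). Mobp and Ntn1 stood lower in knockout ESCs than in control ESCs and fell in control. Dtna stood at 0.583 and 0.801 CPM in knockout ESCs and 3.77 and 4.72 CPM in knockout EBs, against 5.13 and 6.88 CPM and then 7.23 and 6.74 CPM in control.

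The response was lower in knockout for Stra6 (-2.99), the adhesion gene Nrcam (-2.30), the hyaluronan receptor gene Cd44 (-2.15), Plat (-2.11), Pdpn (-1.99), the carbonic anhydrase gene Car4 (-1.98), Itpripl2 (-1.90) and the tetraspanin gene Tspan8 (-1.88). Cd44 stood at 11.6 and 20.5 CPM in knockout ESCs and 7.46 and 7.99 CPM in knockout EBs, and at 3.18 and 3.44 and then 6.50 and 7.76 CPM in control. None of these genes passed when control ESC replicate 1, control ESC replicate 2 or control EB replicate 2 was left out, since 0 genes did.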

How the results depend on the processing

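The knockout counts (1410 higher, 1217 lower) were 2171 higher without a low-count filter, 2239 higher with the GC trend removed, 389 and 429 with only the 4 libraries compared, 540 and 450 at 2-fold and 412 and 285 when called with either knockout EB library left out. Leaving out 1 library gave 503 to 3228 higher and 340 to 2257 lower, the lowest without knockout EB replicate 1 and the highest without knockout ESC replicate 1. The difference counts (127 and 110) were 448 and 256 without the filter, 429 and 278 with the GC trend removed, 201 higher by DESeq2, 69 and 72 at 2-fold, and 0 to 1463 and 0 to 577 with 1 library left out. The control counts (1472 and 1649) were 2264 higher with the GC trend removed, 2932 and 2639 with only the libraries compared, 585 and 719 at 2-fold, and 351 to 2779 and 479 to 2733 with 1 library left out. The cause was not tested. With the replicate block the knockout counts were 1416 and 998 and the difference counts 102 and 78, and 364 and 215 with the GC trend removed as well. Same-numbered libraries deviated with a correlation of 0.015 in knockout and -0.043 in control. These values cannot settle whether the numbers pair libraries, since the GC trend and the liver RNA also enter the knockout deviations. The labels do not say whether they are paired. Signs turned for Zfp462 (0.028 with the GC trend removed, with or without the block) and for the knockout log2 changes of Ntn1 (-0.48 to 0.047 with 1 library left out, the highest without knockout ESC replicate 1), Alb (-3.71 to 13.5) and Cps1 (-0.20 to 6.57; both lowest without knockout EB replicate 1) and Sox2 (-0.021 to 0.45, the lowest without knockout ESC replicate 2). Other values of named knockout genes kept their call, or stayed without one, in 3092 cases. A call was lost in 454 cases and gained in 12. Of 200 named genes called in knockout, 119 were held, and the same 119 passed with any 1 of the 8 libraries left out.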
